A study of Homo sapiens with 6 samples.

Results

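Cyclin-dependent kinases (CDKs) drive the cell cycle only when their cyclins are present and their brakes are released, and the genes described here encode those brakes and the enzymes that release them. They are 10 genes chosen by symbol for this role: the CIP/KIP inhibitors CDKN1A and CDKN1B, the INK4 inhibitors CDKN2C and CDKN2D, the CDK phosphatase CDKN3, the inhibitory kinases WEE1 and PKMYT1, and the phosphatases CDC25A, CDC25B and CDC25C. Each was looked up among the 22933 gene symbols of the deposited table, and a symbol at several rows was represented by the row with the most RefSeq names and then the highest summed value. All 10 were found, and all 10 were among the 13004 symbols called expressed genes below, for which neither group was at 0 and the higher FPKM reached 1.

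The cells were PC-3, a line established from a human prostate adenocarcinoma. RNA-Seq covered 6 samples, 3 labelled tdTom and 3 labelled TTP-tdTom. Cells of both groups carried the rtTA2 transactivator from a first retrovirus, selected with G418, and a second retrovirus with tdTomato expressed from the PGK promoter, and both were kept in 300 ng/ml doxycycline (Dox) for 4 hours before collection, so that by label they differed in the Dox-inducible TTP transgene of the second virus. After the second infection the cells were sorted by flow cytometry, no clone is named, and the vector without TTP served as the control. TTP, encoded by ZFP36, binds AU-rich elements in the 3′UTR of mRNAs and hastens their decay. The table holds 1 FPKM value per group and locus, a count of fragments adjusted for transcript length and library size. With 1 value for 3 samples there is no spread between replicates, and no difference below was tested. The labels state a sequencing depth that was aimed for, but FPKM values hold no counts, so the number of fragments behind each value is unknown. In bulk RNA fewer cells at a stage of the cell cycle and less RNA per cell cannot be told apart. At the ZFP36 row the FPKM was 5.56 in tdTom and 5.54 in TTP-tdTom, so the table shows no rise of the induced gene there. Whether fragments from the transgene were counted at this row was not analysed here, so the row does not check the labels. The names that the table itself gives its groups match the labels, and every direction below rests on those names. The epithelial markers KRT8, KRT18, KRT19 and EPCAM had an FPKM of 15.1 or more in both groups, and the leukocyte and endothelial markers PTPRC and PECAM1 stayed under 1 in both. COL3A1, a fibroblast collagen, had 2.46 in tdTom and was listed at 0 in TTP-tdTom.

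The members act at different points. CIP/KIP proteins bind CDKs together with their cyclins, and p21 (CDKN1A) and p27 (CDKN1B) are the best known of them. INK4 proteins, here p18 (CDKN2C) and p19 (CDKN2D), bind CDK4 and CDK6 and keep D-type cyclins away. CDKN3 removes an activating phosphate from CDK2 and CDK1. WEE1 and PKMYT1 add inhibitory phosphates next to the ATP site of CDK1, WEE1 also on CDK2, and the CDC25 phosphatases take these off again: CDC25A early in the cycle and throughout it, CDC25B and CDC25C mainly around the entry into mitosis. Many of these mRNAs are known to turn over quickly and to be regulated through their 3′UTR.

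Since TTP recognizes the heptamer UAUUUAU and, more weakly, the pentamer AUUUA at its core, the longest annotated 3′UTR of each member was searched for both on the transcript strand. The heptamer was present in 2 of the 10 members, CDKN1B with 2 copies and CDKN2D with 1, and it was present in 36.0% of the 11838 expressed genes with an annotated 3′UTR. The 3′UTRs of the members were short, with a median of 878 bases against 1383 for those genes. The heptamers are shown because they are the sequences TTP is known to prefer, with 8 bases on each side and the heptamer in capitals, 5′ to 3′, from the human transcripts of GENCODE release 29. The numbers give the place of the capitals counted from the first base after the stop codon.

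CDKN1B, bases 517 to 523 of 1344: auaauugcUAUUUAUuuuuacaa
CDKN1B, bases 1110 to 1116 of 1344: uacuaacuUAUUUAUguuaaaag
CDKN2D, bases 518 to 524 of 596: auggauucUAUUUAUuaugcuuu

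Among genes whose 3′UTR was within 20% of the same length, 31.2% held the heptamer at the length of CDKN1B and 17.8% at that of CDKN2D. Over all 10 members this share ran from 10.1% at the length of CDKN2C to 38.9% at that of CDC25A. The longer form UUAUUUAUU, which contains the heptamer, was in the 3′UTR of 0 members and of 9.45% of expressed genes. The pentamer AUUUA, which also lies inside each heptamer, was present in 7 of the 10 members against 74.0% of expressed genes, and CDKN3, PKMYT1 and CDC25C had none. CDC25A held 4 pentamers and CDKN1A held 3, the most among members without a heptamer, and they are shown for that reason, with the pentamer in capitals.

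CDC25A, bases 432 to 436 of 1799: uauguuuaAUUUAuucaacuu
CDC25A, bases 567 to 571 of 1799: ggcuuuuaAUUUAaaaaaaaa
CDC25A, bases 681 to 685 of 1799: cugcugcuAUUUAagccaaga
CDC25A, bases 1791 to 1795 of 1799: cuugauggAUUUAagga
CDKN1A, bases 110 to 114 of 1539: guguuuuaAUUUAaacaccuc
CDKN1A, bases 176 to 180 of 1539: uuagaauuAUUUAaacaaaaa
CDKN1A, bases 248 to 252 of 1539: gaaauacuAUUUAaagccucc

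A match names only the letters in the annotated sequence, and which 3′UTR ends PC-3 cells use was not analysed here.

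In the comparison of the group labelled TTP-tdTom with tdTom, 9 of the 10 members had a lower FPKM and CDKN2D was level. A lower value was the common state of the table, shared by 78.5% of expressed genes. At least 1.5-fold lower were 3 of the 10, CDKN1B, CDC25A and PKMYT1, against 22.8% of expressed genes. At least 1.5-fold higher were 0 of the 10, against 3.9% of expressed genes. The median log2 ratio, log2 of the FPKM in TTP-tdTom over that in tdTom, was -0.28 over the members and -0.23 over all expressed genes. The median of the members therefore lay close to that of expressed genes. Log2 ratios also differed within families, which was not tested. For the CIP/KIP and INK4 pairs that difference depends on how the CDKN1A and CDKN2D rows are read, as described below. With log2 ratios centred on the median of all expressed genes, a shift of 0.23, 6 of the 10 were below 0, against 50% of expressed genes by construction, and 0 were 1.5-fold lower, against 13.6%. CDKN2D, CDC25C, WEE1 and CDC25B were then above 0.

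**Figure D1:**
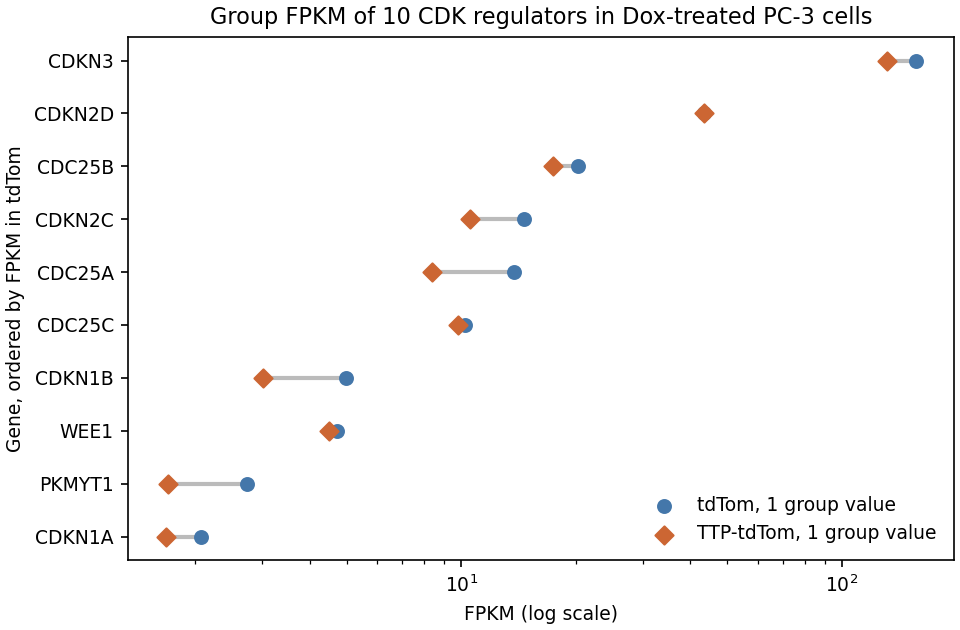
FPKM of the 10 members on a log axis, 1 group value for tdTom (circles) and 1 for TTP-tdTom (diamonds), joined by a line; there are no error bars because no values per sample were analysed. CDKN3 lies highest at 157 and 131, CDKN1A lowest at 2.08 and 1.68, and the longest lines are those of CDKN1B, CDC25A and PKMYT1.

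The members differed far more in level than in change. CDKN3 was the most abundant per length, at an FPKM of 157 in tdTom, above 96.6% of expressed genes, followed by CDKN2D at 43.4 and CDC25B at 20.2. CDKN2C, CDC25A and CDC25C followed at 14.6, 13.7 and 10.2, above the median of 8.44 over expressed genes. CDKN1B, WEE1, PKMYT1 and CDKN1A lay between 5.00 and 2.08, and CDKN1A was above only 16.3% of expressed genes. In TTP-tdTom the order of the 10 was the same except that CDC25C stood above CDC25A and WEE1 above CDKN1B. Whether neighbours in the order differ beyond their spread was not tested.

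**Figure D2:**
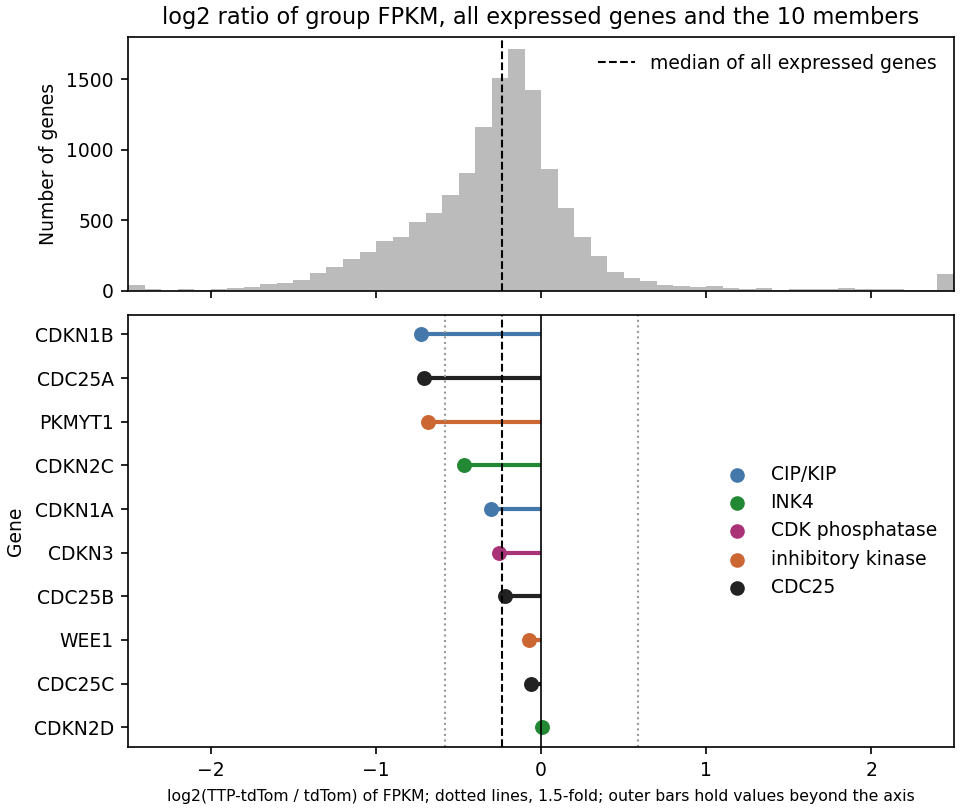
Upper panel, number of expressed genes by log2 ratio of FPKM (TTP-tdTom over tdTom) in bins of 0.1, the outermost bars also holding values beyond the axis; lower panel, the log2 ratio of each member, colored by family. The dashed line marks the median of all expressed genes at -0.23 and the dotted lines 1.5-fold; CDKN1B, CDC25A and PKMYT1 lie beyond the left dotted line and CDKN2D at 0.

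The CIP/KIP inhibitors were both low in these cells. CDKN1B (chromosome 12 of GRCh37, from 12870302 to 12875305), whose protein p27 restrains CDK2 with cyclin E or A, had an FPKM of 5.00 in tdTom and 3.01 in TTP-tdTom. This left 60.3% of the tdTom level, a log2 ratio of -0.73 and the lowest of the 10 as deposited, at the 16.9th percentile of expressed genes. With a pseudocount of 1 its log2 ratio was -0.58, and CDC25A was the lowest at -0.65. Centred on the GC decile, as described below, PKMYT1 was the lowest. CDKN1B is also the member with 2 heptamers shown above, found in its longest annotated 3′UTR. The GC content used for it below, 50.3%, is that of a different transcript, against 47.7% for the one searched. In the 3′UTRs of the transcripts with the longest coding sequence, only 1 member held the heptamer. CDKN1A (chromosome 6, from 36644237 to 36655116) encodes p21, an inhibitor that is induced after DNA damage. Its FPKM was 2.08 in tdTom and 1.68 in TTP-tdTom, which left 80.9% and gave a log2 ratio of -0.31. A further row with the CDKN1A symbol and the same bounds had 0.570 in tdTom and was listed at 0 in TTP-tdTom. With both rows added, CDKN1A also passed 1.5-fold, at a log2 ratio of -0.66, so its place among the members depends on that row.

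The INK4 inhibitors parted. CDKN2C (chromosome 1, from 51434347 to 51443261), the gene of p18, had an FPKM of 14.6 in tdTom and 10.6 in TTP-tdTom, 72.3% left and a log2 ratio of -0.47. CDKN2D (chromosome 19, from 10654647 to 10679777), the gene of p19, had 43.4 and 43.5, a log2 ratio of 0.0026. It carries a heptamer close to the end of its 3′UTR and was the only member whose FPKM was not lower as deposited. The CDKN2D row also holds the RefSeq name of KRI1, a neighbouring gene of ribosome assembly, over 25131 bases, whereas the RefSeq gene CDKN2D spans 2520 bases. How much of the 43.4 comes from CDKN2D cannot be told apart from KRI1 in this table. Without CDKN2D the median log2 ratio over the other 9 members was -0.31.

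CDKN3 (chromosome 14, from 54862395 to 54909587) had an FPKM of 157 in tdTom and 131 in TTP-tdTom. In FPKM units it dropped by 25.4, the most of the 10, although 83.8% was left and the log2 ratio of -0.26 lay at the 47.7th percentile of expressed genes. CDKN3 mRNA is known to be cell cycle regulated and abundant in dividing cells. Its bounds, which are those of the assembled locus, also take in CNIH, a cargo receptor gene with a row of its own at 150 in tdTom and 66.4 in TTP-tdTom. The row next to CDKN3 therefore had 44.3% left within the same bounds.

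The inhibitory kinases parted as well. WEE1 (chromosome 11, from 9595228 to 9611313), the nuclear kinase that holds CDK1 and CDK2 inactive, had an FPKM of 4.73 in tdTom and 4.49 in TTP-tdTom. With 95.0% left and a log2 ratio of -0.075, WEE1 lay at the 70.5th percentile of expressed genes. PKMYT1 (chromosome 16, from 3018757 to 3030540), the membrane-bound kinase of CDK1, had 2.73 and 1.70, so that 62.1% was left at a log2 ratio of -0.69. The number of PKMYT1 transcripts per WEE1, as a ratio of FPKM, was 0.579 in tdTom and 0.379 in TTP-tdTom. This ratio is taken within each group, so a single scaling factor per group does not change it. Centring on the GC decile, as described below, does change it, with PKMYT1 then at -0.59 and WEE1 at 0.12. PAQR4, whose row shares the bounds of PKMYT1, had 18.1 in tdTom and 19.9 in TTP-tdTom. PKMYT1 is among the lowest members in level, and with a pseudocount of 1 its log2 ratio was -0.47.

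The CDC25 phosphatases formed a series. CDC25A (chromosome 3, from 48198597 to 48229801), which activates CDK2 at the start of S phase and CDK1 later, had an FPKM of 13.7 in tdTom and 8.39 in TTP-tdTom. It kept 61.1%, at a log2 ratio of -0.71 and the 17.5th percentile of expressed genes. CDC25B (chromosome 20, from 3776394 to 3789591), the phosphatase that starts CDK1 activation at the centrosome, had 20.2 and 17.4, 86.1% left and a log2 ratio of -0.22. CDC25C (chromosome 5, from 137620959 to 137667738), which acts on CDK1 at mitotic entry, had 10.2 and 9.79, 95.8% left and a log2 ratio of -0.061. Summed over the 3 genes, the FPKM was 44.2 in tdTom and 35.6 in TTP-tdTom, and the share of CDC25A in the sum was 31.1% and 23.6%. The share of CDC25B was 45.8% and 48.9% and that of CDC25C 23.1% and 27.5%. Per WEE1, its opponent on CDK1 and CDK2, CDC25A stood at an FPKM ratio of 2.91 in tdTom and 1.87 in TTP-tdTom, 1.56-fold lower.

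The log2 ratios of the table moved with the base composition of the transcripts. Over the 11892 expressed genes with a GENCODE transcript, 91.4% of all, the median log2 ratio was -0.74 in the lowest decile of GC content and -0.097 in the highest. The members were richer in GC than most, with a median of 54.9% against 48.6%. Set against the median of its own decile, PKMYT1, the richest at 66.2% GC, was lower by a log2 difference of -0.59, CDKN1B of -0.53 and CDC25A of -0.51. CDKN2C followed at -0.35, CDKN1A at -0.19 and CDC25B at -0.11. The other 4 lay above their decile, CDC25C by 0.21, CDKN3 by 0.16, WEE1 by 0.12 and CDKN2D by 0.11. After this centring only PKMYT1 of the 10 was still 1.5-fold lower, against 7.9% of the genes with a GENCODE transcript. CDKN3, at 43.3% GC, was lower in FPKM but above the median of transcripts like it. The GC content of the transcript with the longest 3′UTR, a setting chosen after seeing the data, changed these distances. WEE1 then lay above its decile by 0.33, the highest of the 10, and CDKN3 by 0.083. The part of GC content in these differences was not tested.

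**Figure D3:**
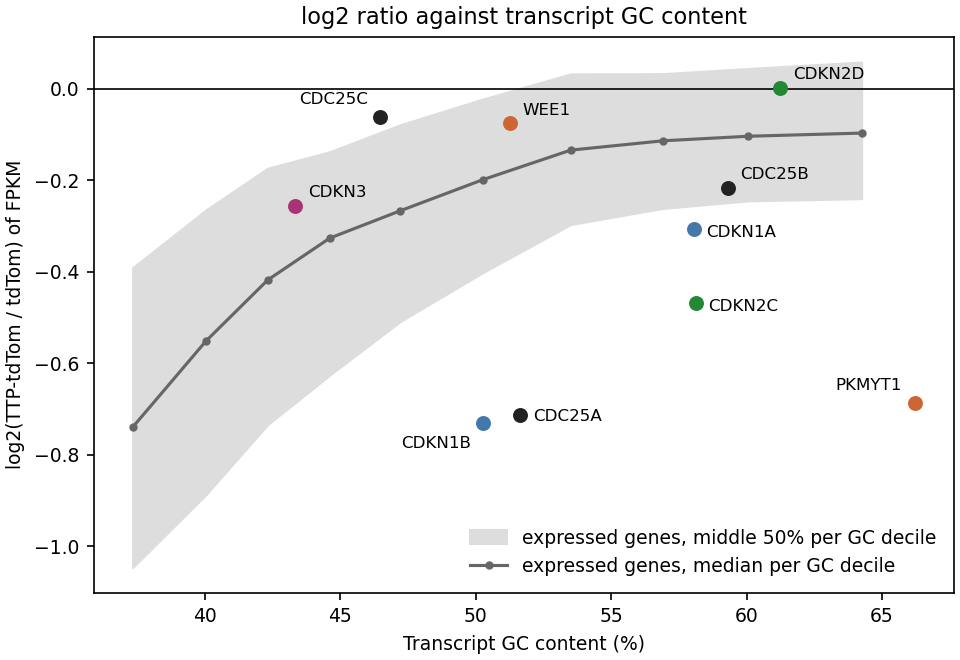
log2 ratio of FPKM (TTP-tdTom over tdTom) against the GC content of the transcript with the longest coding sequence. The line joins the medians of expressed genes per GC decile and the band holds their middle 50%. CDKN1B, CDC25A, CDKN2C and CDKN1A lie below the band, and CDC25C lies above it. PKMYT1, at 66.2% GC, lies lower than the band but beyond its right end at 64.2%.

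Copies of the heptamer went with lower values over the whole table too. The median log2 ratio was -0.17 for the 7573 expressed genes with no heptamer, -0.36 for the 2441 with 1, -0.53 for the 960 with 2 and -0.63 for the 864 with 3 or more. CDKN1B, with 2 copies, lay below the median of its class, and CDKN2D, with 1 copy, lay above that of its own. The CDKN2D row also holds KRI1, so its value may not be that of CDKN2D alone. CDC25A and PKMYT1 were as low as CDKN1B with none, and WEE1 and CDC25C, also with none, were higher than the median of genes without the heptamer. The number of copies thus did not order the members. Between the genes with no heptamer and those with 3 or more, the median 3′UTR length went from 916 to 4461 bases and the median GC content of the transcript from 52.0% to 41.1%. The part of length and GC content was not tested.

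Of 12 CDK and cyclin genes that the members act on, 11 were expressed, 5 were at least 1.5-fold lower (CDK1, CDK6, CCND1, CCNE2 and CCNA2) and 0 higher, beside 22.8% lower over expressed genes, with a median log2 ratio of -0.46. CCND2 was below the filter. CDK1, the kinase of mitotic entry, had an FPKM of 102.2 in tdTom and 37.8 in TTP-tdTom. CCNA2, the S phase cyclin A, was the lowest of the list at a log2 ratio of -1.44, with 17.8 and 6.55. CCND1, the cyclin D that CDK4 and CDK6 use, had the highest level at 404 and 208, and CCND3 was the highest in log2 ratio at 0.071. Of those 5, CDK1, CCNE2 and CDK6 had transcripts with a GC content of 37.0%, 36.9% and 39.5%, in the lowest and next GC deciles. The median log2 ratio over expressed genes was -0.74 and -0.55 there. CCNA2 and CCND1 had 42.1% and 50.3% GC, in deciles with medians of -0.42 and -0.20. Their own log2 ratios were -1.44 and -0.96. The part of GC content was not tested. Since CDK1 was lower by more than any of the 5 members set against it here, each of these members stood higher per CDK1. WEE1 per CDK1 was 0.0462 in tdTom and 0.119 in TTP-tdTom, 2.57-fold higher, and CDC25C per CDK1 was 0.10 and 0.259, 2.59-fold higher. CDC25B and CDKN3 per CDK1 were 2.33-fold and 2.27-fold higher and PKMYT1 per CDK1 1.68-fold. These 5 ratios share the CDK1 value and are not separate results, and kinase and phosphatase moved the same way in them. They were not centred on GC content. The decile median was -0.74 for CDK1 and between -0.42 and -0.097 for the 5 regulators. The part of GC content in these ratios was not tested. Per CDK2, by contrast, CDC25A was 1.19-fold lower, CDKN1B 1.20-fold lower and CDKN1A 1.12-fold higher. With both CDKN1A rows added, an alternative chosen after seeing the data, the direction turned, and CDKN1A per CDK2 was 1.14-fold lower. CDKN1B per CCND1 went the other way from CDKN1B per CDK2, at 0.0124 in tdTom and 0.0145 in TTP-tdTom, 1.17-fold higher. Of the INK4 genes, CDKN2C per CDK4 was 0.632 in tdTom and 0.518 in TTP-tdTom, 1.22-fold lower, and per CDK6 0.921 and 1.25, 1.35-fold higher. CDKN2D, whose row also holds KRI1, stood at 1.88 and 2.13 per CDK4 and at 2.74 and 5.13 per CDK6. The ratios per CDK6 were not centred on GC content either. The decile median was -0.55 for CDK6, -0.11 for CDKN2C and -0.10 for CDKN2D.

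**Figure D4:**
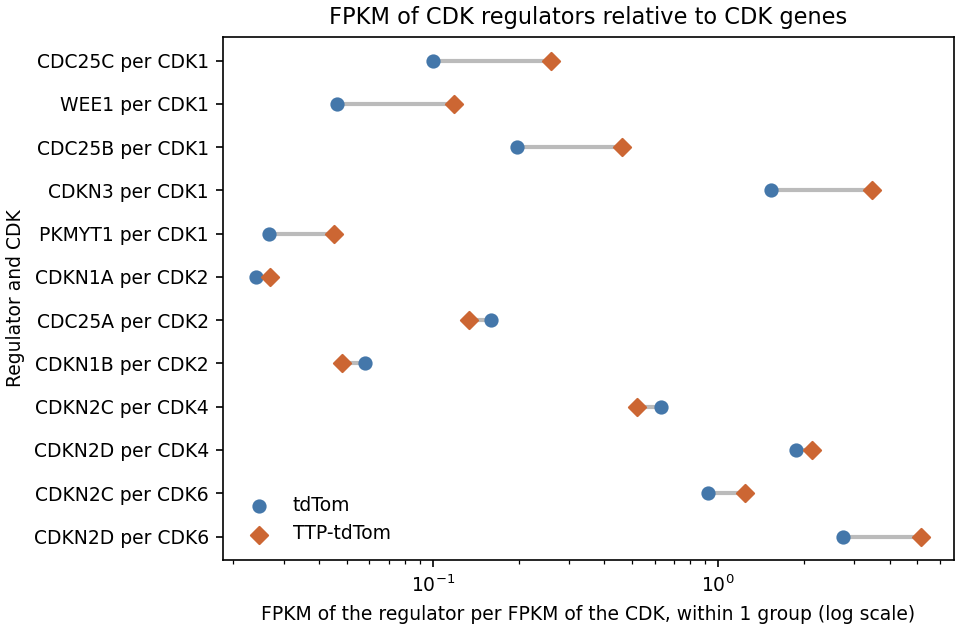
FPKM of a regulator divided by the FPKM of a CDK gene in the same group, on a log axis, for tdTom (circles) and TTP-tdTom (diamonds). The ratios are not centred on GC content. All 5 ratios to CDK1 lie to the right in TTP-tdTom, while those of CDC25A and CDKN1B to CDK2 lie slightly to the left.

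Of 14 kinases and phosphatases that act on WEE1, PKMYT1 or CDC25, all expressed, 12 had a lower FPKM in TTP-tdTom, against 78.5% of expressed genes. At least 1.5-fold lower were 3 (CHEK1, ATR and MAPK14), near the share of 22.8% over expressed genes, and 0 were higher, with a median log2 ratio of -0.47. CHEK1, the checkpoint kinase that marks CDC25A for destruction, had an FPKM of 18.1 in tdTom and 10.2 in TTP-tdTom, and the ratio of CDC25A to CHEK1 was 0.759 and 0.827. MAPK14, the p38 kinase, was the lowest of the list with 4.96 and 2.69. CHEK2 was the highest in log2 ratio, at 0.16, and CSNK1A1 the highest in level at 247 and 176.

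Of 16 parts of ubiquitin ligases known to act on cell cycle proteins, the members among them, 15 had a lower FPKM in TTP-tdTom, against 78.5% of expressed genes. At least 1.5-fold lower were 2, beside 22.8% over expressed genes, and 0 were higher, with a median log2 ratio of -0.25. Whether these shares differ from those over expressed genes was not tested. SKP2, the F-box protein that brings p27 to its ligase, was the most abundant, with an FPKM of 142 in tdTom and 91.7 in TTP-tdTom. FBXW11 and BTRC, close relatives that recognize WEE1 and CDC25A, lay at the ends of the list. FBXW11 had 39.8 and 19.7, a log2 ratio of -1.02, and BTRC 4.02 and 5.12, a log2 ratio of 0.35. CDKN1B and the gene for its F-box protein SKP2 were thus both lower in TTP-tdTom, at log2 ratios of -0.73 and -0.63.

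Of 10 transcription regulators of CDKN1A and CDKN1B, 9 were expressed (FOXO1 was not), 2 were at least 1.5-fold lower, near the 22.8% over expressed genes, and 0 higher, with a median log2 ratio of -0.41. KLF4, an inducer of CDKN1A, had an FPKM of 4.35 in tdTom and 1.96 in TTP-tdTom, and KLF6, which also activates CDKN1A, 6.87 and 4.33. MYC, a repressor of CDKN1A, was the highest in level at 54.9 and 39.7, and ZBTB17, its partner in that repression, the highest in log2 ratio at 0.21. Of the other 3 CDK inhibitor genes, CDKN1C was below an FPKM of 1 in both groups. CDKN2A had 22.4 in tdTom and 17.8 in TTP-tdTom and CDKN2B 1.93 and 1.30, neither 1.5-fold lower.

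**Figure D5:**
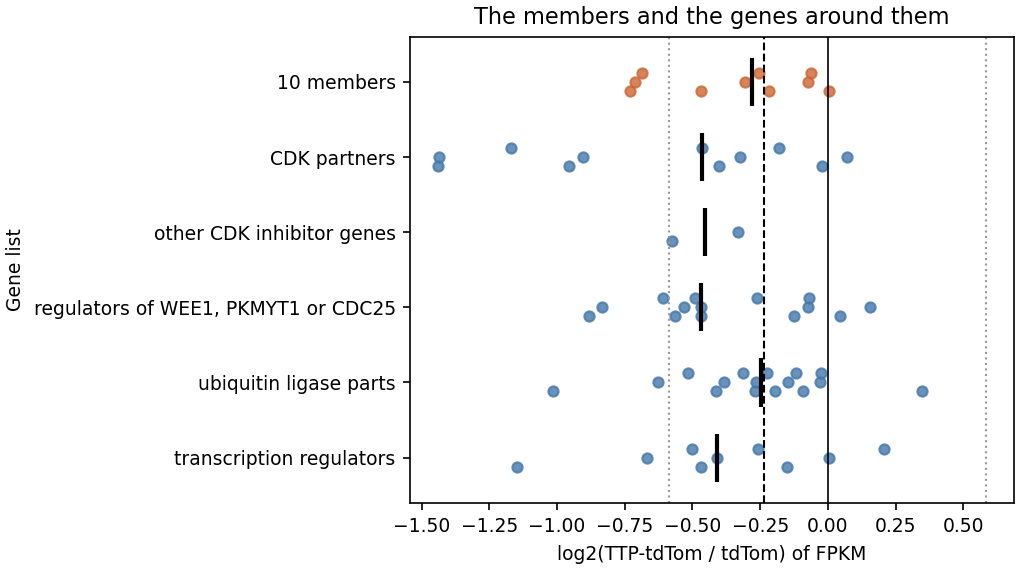
log2 ratio of FPKM (TTP-tdTom over tdTom) of the 10 members and of the expressed genes of 5 lists around them, 1 point per gene, with the list median as a thick bar. The dashed line is the median of all expressed genes at -0.23 and the dotted lines 1.5-fold; the CDK partners reach lower, to -1.44, than any member.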

How the data were processed

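The authors prepared strand-specific libraries, aligned paired-end reads to Hs37D5 (GRCh37 with decoys) with TopHat2 2.0.13 and assembled and compared transcripts with Cufflinks 2.2.1, versions per the labels' processing notes. The deposited table gives 1 FPKM value per group at 406165 loci, whose bounds are those of the assembled locus. Columns with fold changes, test statistics, p-values and q-values hold the comparison made by the authors and were left aside. The design allowed for values per replicate in the table. It held none, so no test was run.

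Ratios were computed from FPKM with no pseudocount, and a gene was counted as lower or higher past 1.5-fold. The members, the gene lists and the threshold were chosen with earlier results of these data known. All members are named. Of the lists, the gene with the highest FPKM in tdTom and those with the lowest and highest log2 ratio are named, plus CDK1 and, after their values were seen, CDK2, CDK4, CDK6, CCNE2, CCND2, FOXO1, CHEK1, ATR, KLF6, the 3 other inhibitor genes and the genes with rows inside members' bounds. Symbols were matched to GENCODE release 29, for names and sequences only, by symbol or RefSeq synonym. GC content is that of the transcript with the longest coding sequence. The functions were checked on made-up data. Python 3.11.15, numpy 2.4.6, pandas 2.3.3 and matplotlib 3.10.9 were used. Some items are not reported here.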

Additional observations from a re-analysis of the deposited data

How the results depend on the processing

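No paired analysis was possible because the table holds 1 value per group, and for the same reason no replicate could be left out. The number of members at least 1.5-fold lower, 3, was 0 at a fold of 2 and 0 with centring on the median of expressed genes. It was 1 with a pseudocount of 1 (CDC25A), 1 with the FPKM filter at 10 (CDC25A), 1 with centring on the GC decile (PKMYT1) and, in settings chosen after seeing the data, 1 with that filter at 5 (CDC25A) and 1 with the GC content of the transcript with the longest 3′UTR (PKMYT1). Both filters kept 6 of the 10 members and removed CDKN1B and PKMYT1 by their level, with their ratios unchanged. CDKN1B, at an FPKM of 4.997 in tdTom, only just missed the filter at 5. The count was 3 or 4 under the other settings, and the number at least 1.5-fold higher was 0 under all that were run. The median log2 ratio of the members, -0.28, was -0.27 with a pseudocount of 0.1, -0.23 with a pseudocount of 1, -0.36 with FPKM summed over all loci of a symbol, -0.046 centred on expressed genes, -0.23 with both groups scaled to an equal FPKM total, -0.15 centred on the GC decile and, chosen after seeing the data, -0.15 with the other GC content and -0.31 without CDKN2D. The members with UAUUUAU, 2, were 1 in the 3′UTR of the transcript with the longest coding sequence, 0 for UUAUUUAUU and 7 for AUUUA. No log2 ratio of CDKN1B, CDC25A or PKMYT1 changed sign under the settings run. The precision of each value is limited by fragment counts that FPKM does not give.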

Other observations

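Several members share their assembled bounds with rows of other genes, whose transcripts were assembled into the same locus. Within the bounds of CDKN2D, ATG4D, an autophagy protease, had an FPKM of 19.5 in tdTom and 13.1 in TTP-tdTom, a log2 ratio of -0.57, whereas the CDKN2D row was level. Within those of CDKN3, CNIH had a log2 ratio of -1.18 against -0.26 for CDKN3, and within those of PKMYT1, PAQR4 had 0.14 against -0.69.

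Rows without a gene symbol in the bounds of CDKN2C, CDKN3 and CDC25B had FPKM values between 0.337 and 1.60 in either group. Of these 4 rows, those lower in TTP-tdTom were the row over CDKN2C, at a log2 ratio of -0.71, and one over CDC25B, at -0.58. Those higher were the row over CDKN3, at 0.20, and the other over CDC25B, at 0.094. Whether these rows are antisense or unspliced RNA was not tested.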
